A study of Sus scrofa with 14 samples.

Results

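The 4 genes described here encode secreted proteins of milk, namely alpha-S1-casein (CSN1S1), beta-casein (CSN2), kappa-casein (CSN3) and alpha-lactalbumin (LALBA). They were matched by symbol, with no measured value in the rule, and are 4 of the 30071 gene identifiers counted. CSN2 (ENSSSCG00000009261), CSN3 (ENSSSCG00000009267) and LALBA (ENSSSCG00000024573) carry their symbols in the files. CSN1S1 is listed there by its identifier, ENSSSCG00000009262, and took its symbol from a table that pairs identifiers with names.

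Mammary glands came from multiparous sows in a second breeding cycle, with 2 sows at each of 5 stages: day 90 of gestation (G90), day 0 (L0) and day 20 (L20) of lactation, and 2 days (PI2) and 7 days (PI7) of natural involution. The breed is not given in the sources read here, and no transgene or treatment was involved. Each gland was snap-frozen and gave 1 single-nucleus library, in which each nucleus has its barcode and each captured RNA molecule a unique molecular identifier (UMI). A tissue section each of G90 and PI2 was profiled in spots that can hold several cells, and a milk sample each of L0 (colostrum) and L20 (mature milk) was profiled as single cells. The sections and milk samples have no replicates, and the labels of the milk samples name the mammary gland as tissue where the methods name milk.

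The gland libraries held 9332 to 18693 kept nuclei and 18700704 to 53161349 UMIs each, with a median of 1382 to 2496 UMIs per nucleus. Any pair of the 12 libraries of nuclei and cells shared 52 to 284 barcodes, at most 1.52% of the smaller library. Nuclei were sorted into classes by fixed marker genes that hold none of the 4 genes. The epithelial gate took 45.5% to 83.0% of nuclei in 8 glands, 25.2% in PI7 replicate 1 and 8.58% in L20 replicate 2, and 13.9% to 47.6% of nuclei had no class. L20 replicate 2 therefore stood apart in its make-up, and values per epithelial nucleus are given beside those of the whole gland for that reason.

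Caseins are phosphorylated proteins that carry calcium phosphate and assemble into micelles in milk, and kappa-casein sits at the surface of the micelle and keeps it in suspension. Alpha-lactalbumin binds the galactosyltransferase B4GALT1 in the Golgi and turns it into lactose synthase, so it governs lactose synthesis and thereby the water content of milk. Both kinds of gene are classically transcribed in secretory luminal epithelial cells under prolactin acting through JAK2 and STAT5, with glucocorticoids and the factor ELF5. Their transcripts are among the most abundant in a lactating gland, and RNA released from broken cells can enter droplets that hold other cells.

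The 3 casein genes lie in a cluster on chromosome 8 of Sscrofa11.1 and LALBA lies alone on chromosome 5, in the RefSeq annotation. CSN1S1 spans chr8:66888231-66908306 on the plus strand, with 19 exons and 206 residues. CSN2 lies at chr8:66914231-66922636 on the minus strand, with 10 exons and 231 residues, and 5924 bp separate its end from the end of CSN1S1. The 2 genes therefore point towards each other, and neither shares a start region with the other. CSN3 lies at chr8:67099131-67109112 on the plus strand, with 6 exons and 187 residues, and its start overlaps the long noncoding gene LOC102160683 on the minus strand. Whether the counting used the strand is not given in the sources read here, so UMIs in that overlap cannot be assigned. LALBA, at chr5:79214487-79216791 on the minus strand, is the shortest of the 4, at 2305 bp with 4 exons and 141 residues. The caseins span 220882 bp together.

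The 200 bases before each start were read from Sscrofa11.1 and are shown because these genes share a tissue and a hormonal control. They run 5′ to 3′ on the strand of the gene. Capitals mark matches to TTCNNNGAA, the spacing to which STAT factors such as STAT5 bind, and to the motif TATAAA of a TATA box. Both strands were searched, and no match overlapped another.
CSN1S1 (chr8:66888031-66888230, plus strand): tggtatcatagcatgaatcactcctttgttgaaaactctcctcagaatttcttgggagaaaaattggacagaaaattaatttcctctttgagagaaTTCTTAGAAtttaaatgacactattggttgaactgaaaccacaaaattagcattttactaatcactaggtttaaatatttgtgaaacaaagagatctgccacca
CSN2 (chr8:66922637-66922836, minus strand): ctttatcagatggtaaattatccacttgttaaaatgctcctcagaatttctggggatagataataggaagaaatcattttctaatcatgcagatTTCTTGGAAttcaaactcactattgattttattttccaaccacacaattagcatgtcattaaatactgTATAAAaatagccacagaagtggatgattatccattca
CSN3 (chr8:67098931-67099130, plus strand): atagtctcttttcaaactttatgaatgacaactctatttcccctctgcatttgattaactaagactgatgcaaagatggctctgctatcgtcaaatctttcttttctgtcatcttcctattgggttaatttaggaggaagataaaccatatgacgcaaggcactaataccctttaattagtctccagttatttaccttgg
LALBA (chr5:79216792-79216991, minus strand): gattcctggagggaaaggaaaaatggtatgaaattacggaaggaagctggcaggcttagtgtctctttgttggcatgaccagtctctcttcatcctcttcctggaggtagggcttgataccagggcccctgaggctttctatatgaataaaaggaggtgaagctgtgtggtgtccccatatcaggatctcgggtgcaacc

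The promoters of CSN1S1 and CSN2 resembled each other at the same distance from the start. CSN1S1 holds TTCTTAGAA at 104 to 96 bases before its start and CSN2 holds TTCTTGGAA at 106 to 98 bases before its own. They also share the 15 bases ctcctcagaatttct, at 163 to 149 and 164 to 150 bases before the start. CSN2 holds TATAAA at 38 to 33 bases before its start. These letters were not found in the windows of CSN3 and LALBA. Of 19556 pig promoters of this length, 4.83% held TTCNNNGAA and 7.69% TATAAA. The casein windows were rich in A and T, with 32%, 31% and 36% G and C for CSN1S1, CSN2 and CSN3 against 49.5% for LALBA.

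In whole glands the caseins were high in both glands of L0 and in G90 replicate 2 and lower elsewhere, and LALBA was highest in the glands of L0. Levels are UMIs of a gene per 1000000 UMIs of the library (CPM), with each pair of values in the order replicate 1, replicate 2. CSN1S1 stood at 947 and 4760 CPM (G90), 6314 and 3937 (L0), 218 and 66.0 (L20), 276 and 136 (PI2), and 41.0 and 90.1 (PI7). The 4 glands of G90 and L0 were thus above all 6 later ones, and G90 and L0 overlapped. CSN3 stood at 173 and 853 CPM (G90), 2401 and 1793 (L0), 311 and 34.1 (L20), 106 and 295 (PI2), and 71.8 and 107 (PI7). Only the 2 glands of L0 stood clear of all others for this gene.

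CSN2 and LALBA differed more between the sows of G90, L20 and PI2 than the other members, and less than CSN1S1 or CSN3 between those of L0. CSN2 stood at 93.7 and 2443 CPM (G90), 1932 and 2014 (L0), 192 and 5.67 (L20), 2.22 and 478 (PI2), and 1.49 and 0.191 (PI7). LALBA stood at 0.906 and 61.2 CPM (G90), 661 and 527 (L0), 133 and 1.37 (L20), 0 and 92.2 (PI2), and 0.644 and 0 (PI7). PI2 replicate 2 thus held more CSN2 than either gland of L20, while PI2 replicate 1 held no UMI of LALBA at all. In whole glands, fewer epithelial cells and less RNA of the gene per epithelial cell cannot be told apart.

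**Figure D1:**
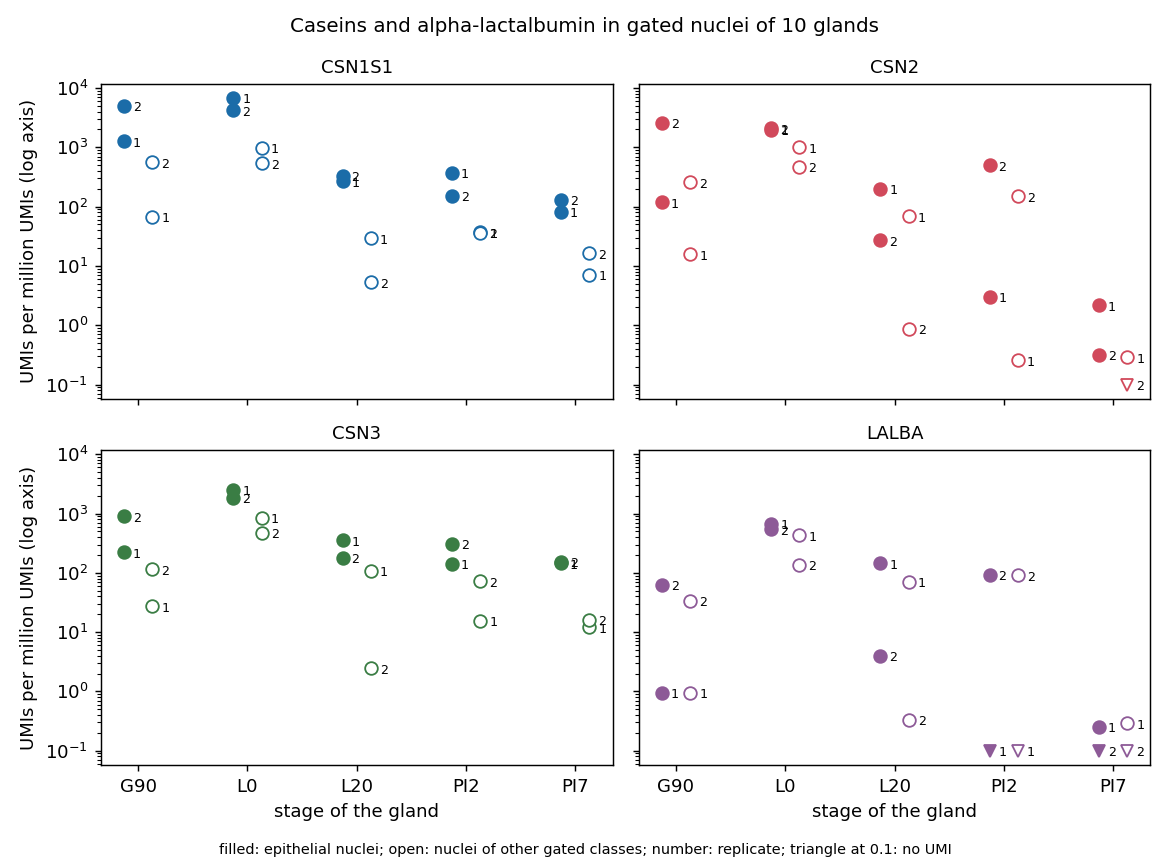
CPM of each gene in the 10 glands by stage on a log axis, with 1 panel per gene. Filled circles are epithelial nuclei and open circles are the nuclei of the other gated classes of the same gland, numbers give the replicate, and a triangle at 0.1 marks a gland without a UMI. The epithelial circles of L0 lie close together in every panel, whereas CSN2 at PI2 runs from 2.999 to 499.7 CPM.

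Counting epithelial nuclei alone kept the higher levels of CSN1S1 at G90 and L0 and of CSN3 at L0. The means of L20 and PI2 changed order, although the glands of these stages overlapped. In whole glands the means were 142 and 206 CPM for CSN1S1 and 172 and 201 for CSN3. In epithelial nuclei they were 301 and 263 CPM for CSN1S1 and 266 and 226 for CSN3. CSN1S1 stood at 1267 and 5006 CPM in epithelial nuclei at G90, 6794 and 4195 (L0), 269 and 334 (L20), 376 and 151 (PI2), and 81.6 and 129 (PI7). The 4 values of G90 and L0 lay above the 6 others, those of L20 and PI2 overlapped, and both of PI7 lay below them. CSN3 stood at 223 and 898 CPM (G90), 2499 and 1856 (L0), 354 and 178 (L20), 143 and 309 (PI2), and 145 and 154 (PI7), with L0 above all others and the 4 glands of involution within the range from 143 to 309. L20 replicate 2, low in every gene over the whole gland, was within 1.24-fold of its partner for CSN1S1 once epithelial nuclei alone were counted, and within 1.99-fold for CSN3.

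The order of stages by the mean in epithelial nuclei was L0, G90, then the 3 later stages for CSN1S1 and CSN3. CSN1S1 averaged 5495 ± 1838 CPM at L0, 3136 ± 2644 at G90, 301 ± 45.7 at L20, 263 ± 159 at PI2 and 105 ± 33.5 at PI7 (each ± the SD of 2 sows). CSN3 averaged 2177 ± 455 CPM at L0, 560 ± 477 at G90, 266 ± 125 at L20, 226 ± 117 at PI2 and 149.9 ± 6.46 at PI7. CSN2 averaged 2044 ± 80.1 CPM at L0, 1347 ± 1737 at G90, 251 ± 351 at PI2, 114 ± 124 at L20 and 1.24 ± 1.31 at PI7, and LALBA 603 ± 88.7 at L0, 74.2 ± 99.4 at L20, 46.5 ± 65.8 at PI2, 32.0 ± 43.9 at G90 and 0.128 ± 0.180 at PI7. Among neighbours in these orders, the means differed by more than the larger SD between L0 and G90 for CSN3, between G90 and L20 for CSN1S1, and between L0 and L20 for LALBA, and by less than it for all other neighbours.

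For CSN2 and LALBA the gap between sows remained within epithelial nuclei. CSN2 stood at 119 and 2575 CPM (G90), 1988 and 2101 (L0), 202 and 26.9 (L20), 2.999 and 499.7 (PI2), and 2.17 and 0.316 (PI7), so that the sows of a stage differed 21.7-fold at G90, 1.06-fold at L0, 7.5-fold at L20, 167-fold at PI2 and 6.85-fold at PI7. LALBA stood at 0.945 and 63.0 CPM (G90), 665 and 540 (L0), 144 and 3.97 (L20), 0 and 93.0 (PI2), and 0.255 and 0 (PI7). It was not detected in the epithelial nuclei of PI2 replicate 1 and PI7 replicate 2, where 3 UMIs, the limit that a count of 0 allows, would be 0.184 and 0.237 CPM, and it had 4 UMIs in PI7 replicate 1. The glands with the higher CSN2 at G90, L20 and PI2 were also those with the higher LALBA, and the 2 glands of L0 alone agreed in all 4 genes within 1.62-fold.

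The same gap shows in how many epithelial nuclei held a UMI. At G90, CSN2 was seen in 13.3% of the epithelial nuclei of replicate 1 and 84.9% of replicate 2. At PI2 it was seen in 0.282% (95% exact binomial interval 0.1702% to 0.441%) and 46.1% (44.7% to 47.5%). Such intervals cover counting error only, and epithelial nuclei of the 2 glands at PI2 had similar depth, with medians of 2236 and 2074.5 UMIs.

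**Figure D2:**
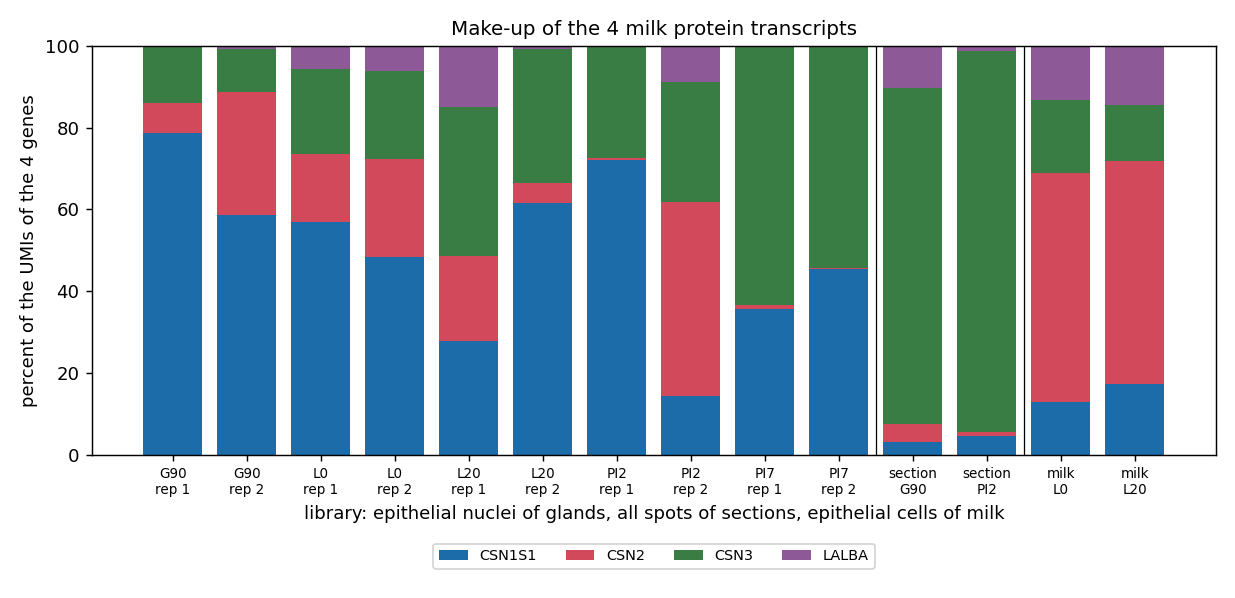
Share of each gene among the UMIs of the 4 genes (percent, stacked bars) in epithelial nuclei of the 10 glands, all spots of the 2 sections and epithelial cells of the 2 milk samples. CSN1S1 takes 48.3% and 56.9% at L0 in gland nuclei, CSN3 takes over 82% in the sections, and CSN2 takes 56.1% and 54.7% in milk.

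The 4 genes differed in their share of the total as well as in level. In epithelial nuclei at L0, CSN1S1 held 56.9% and 48.3% of the UMIs of the 4 genes, CSN3 20.9% and 21.4%, CSN2 16.6% and 24.2%, and LALBA 5.57% and 6.21%. At PI7, CSN3 held 63.4% and 54.4% and CSN1S1 35.6% and 45.4%, which left CSN2 and LALBA with under 1% in sum in replicate 2 and little more in replicate 1. At PI2 the sows differed, with 72.0% of the UMIs from CSN1S1 in replicate 1 and 47.5% from CSN2 in replicate 2. Together the 4 genes held 1.19% and 0.869% of all UMIs of epithelial nuclei at L0, 0.161% and 0.854% at G90, and at most 0.105% in any gland of the 3 later stages.

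Dividing the levels by mRNA or gene length gave different orders of the 4 genes within a gland. A UMI marks 1 captured molecule, so such values are descriptions only, and whether UMIs scaled with length was not tested. Per kilobase of mRNA, L0 replicate 1 held 6071 CPM of CSN1S1, 2943 of CSN3, 1814 of CSN2 and 971 of LALBA. Per kilobase of the whole gene body, the same gland held 338 CPM of CSN1S1, 289 of LALBA, 250 of CSN3 and 236 of CSN2. In L0 replicate 2, CSN1S1 led per kilobase of mRNA at 3749 CPM, whereas per kilobase of gene body CSN2 led at 249.9 and CSN3 was lowest at 186. Whether intronic reads were counted is not given in the sources read here, so no order of the 4 genes in nuclei is given.

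Within a gland, CSN1S1 was spread more evenly over epithelial nuclei at L0 than at the later stages. The top 10% of epithelial nuclei held 43.7% and 49.8% of the CSN1S1 UMIs at L0, against 81.1% and 80.5% (L20), 74.4% and 71.0% (PI2), and 95.3% and 86.6% (PI7). At G90 they held 54.7% in replicate 1 and 28.4% in replicate 2. A share of this kind rises by itself when a gene has few UMIs per nucleus, and the part of that in these shares was not tested. At L0 the top 10% held 33.7% and 38.2% of the CSN3 UMIs, 55.01% and 55.9% of CSN2, and 67.9% and 63.8% of LALBA. CSN2 in PI2 replicate 2, with 54.2% in the top 10%, was no more concentrated than at L0. The highest count of CSN1S1 in a nucleus of L0 replicate 1 was 475 UMIs.

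Pairs of the genes correlated to differing degrees across epithelial nuclei. Among nuclei of at least 2000 UMIs, Spearman's rho between pairs of the 4 genes per UMI ran from 0.251 to 0.401 in L0 replicate 1 (5204 nuclei) and from 0.272 to 0.442 in L0 replicate 2 (3549 nuclei). The pair with values in all 10 glands, CSN1S1 and CSN3, had rho from 0.188 in PI7 replicate 2 to 0.497 in L20 replicate 2. Of the pairs with LALBA that had values, the lowest were in G90 replicate 2 (11144 nuclei), at 0.0733 to 0.103, and CSN2 and LALBA had a rho of 0.107 in L20 replicate 1. Nuclei of a gland share a library and its free RNA, and the values are descriptions.

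Stages were compared on UMIs summed per gland, with edgeR's quasi-likelihood test over all genes and Benjamini-Hochberg adjustment. A gene was called at an adjusted p under 0.05 and an absolute log2 fold change over 1. In whole glands none of the 4 genes was called in any of the 4 comparisons of adjacent stages, where edgeR called 0 of 22695 genes (0%) in either direction. At an unadjusted p under 0.05 there were 1652, 2912, 817 and 464 genes from G90 to L0, L0 to L20, L20 to PI2 and PI2 to PI7, and DESeq2 called 392, 1157, 17 and 13. From G90 to L0 the log2 fold changes of CSN1S1, CSN2, CSN3 and LALBA were 1.04, 0.77, 2.23 and 4.38. From L0 to L20 they were -5.50 for CSN1S1 (SE 1.15, adjusted p = 0.160), -4.55 for CSN2 (SE 2.22, adjusted p = 0.422), -3.87 for CSN3 (SE 1.21, adjusted p = 0.228) and -3.36 for LALBA (SE 2.50, adjusted p = 0.597). Under DESeq2 the adjusted p of CSN1S1 was 1.70e-06 and that of CSN3 0.00693, the lowest of 17 alternatives for each, which reached 0.756 and 0.928, and without a filter on low counts edgeR called both (0.00637 and 0.0440). The F test over the 5 stages called 0 of 22695 genes (0%), where an unadjusted p under 0.05 was reached by 2281 genes and DESeq2 called 1544. CSN1S1 had the highest F of the members at 15.7, with an adjusted p of 0.0777, which fell under the threshold without L20 replicate 1 (0.0492) or PI2 replicate 1 (0.0447) and ranged from 5.44e-11 to 0.311 over 16 alternatives. DESeq2 called CSN3 (0.000207) besides CSN1S1, and without a filter on low counts edgeR called 614 of 28707 genes and all 4 members, with adjusted p of 8.16e-05 for CSN1S1, 0.00688 for CSN2, 0.00411 for CSN3 and 0.0291 for LALBA.

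In epithelial nuclei alone, CSN1S1 was the member called over the 5 stages by edgeR. The F test called 22 of 19616 genes (0.112%), and CSN1S1 was among them with an F of 24.2 and an adjusted p of 0.0385. CSN3 had an F of 11.4 (adjusted p = 0.0731), CSN2 of 5.37 (adjusted p = 0.202) and LALBA of 3.96 (adjusted p = 0.297). The call of CSN1S1 was lost without L0 replicate 1 (0.153), L0 replicate 2 (0.103), L20 replicate 1 (0.0549), L20 replicate 2 (0.0503), PI7 replicate 1 (0.129) or PI7 replicate 2 (0.138), and its adjusted p ranged from 3.98e-16 to 0.153 over 18 alternatives. CSN3 passed without PI2 replicate 1 (0.0408) or PI2 replicate 2 (0.0417), with a range of 5.58e-07 to 0.359, and CSN2 passed without PI2 replicate 2 (0.0437), with a range of 0.00090 to 0.504. DESeq2 called CSN2 (0.0269) and CSN3 (5.58e-07) too, and edgeR without a filter on low counts called CSN2 (0.00090), CSN3 (0.000109) and LALBA (0.00443), the lowest of a range for LALBA that reached 0.7005.

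In the reported fit edgeR called no member between adjacent stages in epithelial nuclei. From G90 to L0 the log2 fold changes were 1.04 for CSN1S1 (SE 0.71, adjusted p = 0.631), 0.79 for CSN2 (SE 1.79, adjusted p = 0.923), 2.19 for CSN3 (SE 0.79, adjusted p = 0.286) and 4.40 for LALBA (SE 2.48, adjusted p = 0.539), where edgeR called 4 of 19616 genes higher (0.0204%) and 0 lower. From L0 to L20 they were -4.59 for CSN1S1 (SE 0.81, adjusted p = 0.133), -4.37 for CSN2 (SE 2.04, adjusted p = 0.408), -3.33 for CSN3 (SE 0.82, adjusted p = 0.168) and -3.19 for LALBA (SE 2.35, adjusted p = 0.620). Here edgeR called 0 of 19616 genes (0%), with 2510 at an unadjusted p under 0.05 and 902 called by DESeq2. CSN1S1 was called as lower at L20 by DESeq2 (2.13e-07), without a filter on low counts (0.000681), with the glands of L0 and L20 alone (0.0428), and without G90 replicate 1 (0.0378), G90 replicate 2 (0.0358), PI2 replicate 1 (0.0496) or PI2 replicate 2 (0.0484). Its adjusted p ranged from 2.13e-07 to 0.776 over 19 alternatives. CSN3 was called by DESeq2 (0.00131) and without a filter on low counts (0.00775), and its adjusted p reached 0.776.

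Later comparisons in epithelial nuclei gave no call for a member under edgeR. From L20 to PI2 the log2 fold changes of the members ran from -0.68 to 1.17, with adjusted p from 0.934 to 0.978. From PI2 to PI7 they were -1.48 for CSN1S1, -8.02 for CSN2 (SE 2.45, unadjusted p = 0.00824), -0.86 for CSN3 and -8.69 for LALBA, with adjusted p = 0.9997 for each. The values of CSN2 and LALBA rest on PI2 replicate 2, and those of LALBA depend on the prior count since PI7 held 4 and 0 UMIs. Both comparisons had 0 of 19616 genes called by edgeR (0%), with 708 and 588 at an unadjusted p under 0.05 and 8 and 28 called by DESeq2.

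The UMIs of the 4 genes were not confined to epithelial nuclei, so their level was also taken in nuclei that should lack them. These were the mural, fibroblast, endothelial, macrophage, neutrophil, T and NK, B and plasma, and adipocyte nuclei of each gland summed, 202 to 6960 nuclei a gland. CSN1S1 stood there at 67.2 and 560 CPM (G90), 989.8 and 538 (L0), 29.4 and 5.27 (L20), 37.0 and 35.9 (PI2), and 7.06 and 16.3 (PI7). These values were below those of the epithelial nuclei in all 10 glands, by 4.2-fold to 63.3-fold with a median of 9.04-fold. CSN3 was lower in all 10 as well, by 2.95-fold to 72.8-fold with a median of 8.01-fold.

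CSN2 and LALBA stood out less from the other nuclei. CSN2 stood there at 15.6 and 257 CPM (G90), 999 and 472 (L0), 68.2 and 0.862 (L20), 0.257 and 148 (PI2), and 0.290 and 0 (PI7), below the epithelial nuclei in 9 of 10 glands. In PI7 replicate 2 a difference was not detectable, since 3 UMIs in the other nuclei would be 0.844 CPM, above the 0.316 CPM of the epithelial nuclei. LALBA stood at 0.947 and 33.9 CPM (G90), 431 and 138 (L0), 70.2 and 0.335 (L20), 0 and 90.5 (PI2), and 0.290 and 0 (PI7). It was lower than in epithelial nuclei in 6 of 10 glands, and in PI2 replicate 2 its level in the other nuclei was 90.5 CPM against 93.0. The level in the other nuclei there rests on 58 UMIs. A LALBA UMI was seen in 10.5% of the epithelial and 5.59% of the other nuclei of that gland, and in 6.08% and 3.25% with nuclei thinned to 1000 UMIs.

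Over the 10 glands, all 4 genes were higher in epithelial nuclei in a fit with the gland as a block, among 11.8% of 20785 genes called in this direction. The log2 difference was 3.74 for CSN1S1 (SE 0.27, adjusted p = 1.07e-08), 2.89 for CSN2 (SE 0.30, adjusted p = 5.90e-07), 3.22 for CSN3 (SE 0.32, adjusted p = 3.65e-07) and 1.48 for LALBA (SE 0.30, adjusted p = 0.000826). All 4 calls held with each gland left out in turn. These fitted differences follow TMM scaling and are not the CPM folds given above. By CPM, LALBA was higher in 6 of 10 glands. Its median fold was 1.86 over the 7 glands with more than 3 UMIs in the other nuclei. The fitted log2 difference of LALBA ran from 1.05 to 2.45 over 15 alternatives, against a threshold of 1. Without the block the differences between glands entered the error, and CSN2 (adjusted p = 0.173) and LALBA (adjusted p = 0.406) were then not called, the highest values over 15 alternatives that otherwise reached down to 1.29e-15 and 2.12e-05.

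The difference between the classes was not called as differing between stages for any member. In the F test of class by stage, which called 478 of 20785 genes (2.3%), 0 of the 4 were called by edgeR's quasi-likelihood test, with adjusted p = 0.459 for CSN1S1, 0.784 for CSN2, 0.783 for CSN3 and 0.696 for LALBA. The log2 difference of CSN1S1 was 3.98, 3.42, 4.95, 3.13 and 3.44 (G90), L0, L20, PI2 and PI7. That of LALBA was 1.03, 1.79, 2.18, 0.59 and 0.03. Without L20 replicate 1, where 1740 of 22108 genes were called, all 4 were among them, with adjusted p of 4.25e-07, 8.13e-05, 1.22e-09 and 0.0103 for CSN1S1, CSN2, CSN3 and LALBA, and CSN1S1 was called without PI2 replicate 1 (0.0327), as were 2283 of 22108 genes. Without a filter on low counts CSN1S1 (0.00121), CSN2 (0.0415) and CSN3 (0.00381) were among 2010 of 28307 genes called. Over 13 alternatives the highest adjusted p were 0.816, 0.994, 0.994 and 0.794.

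In L0 replicate 1 the larger classes other than epithelial nuclei held the transcripts too. Its 199 fibroblast nuclei held 1269 CPM of CSN1S1, 1493 of CSN2, 1229 of CSN3 and 732 of LALBA, so that LALBA was above its level of 665 in epithelial nuclei. Its 199 endothelial nuclei held 802, 643, 579.6 and 229 CPM, and its 46 T and NK nuclei 1013, 861, 675 and 186 CPM, in the same order of genes. The 27 myoepithelial nuclei, from cells that contract to eject milk and do not secrete it, held 1015, 824, 888 and 423 CPM. LALBA differed in L0 replicate 2, where, thinned to 1000 UMIs, it was seen in 4.11% of 24 fibroblast nuclei and 28.1% of epithelial nuclei. The same shares in L0 replicate 1 were 30.1% and 28.8%. Adipocyte nuclei numbered 1 to 11 in 9 glands, too few to read. In L20 replicate 2, 265 of them held 3 UMIs of CSN1S1 and none of the other 3 genes in 1199237 UMIs, against 2.50 CPM as the limit that a count of 0 allows.

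The 4 genes did not keep their epithelial proportions in the other nuclei of every gland. CSN1S1 held 30.3% of the 4 genes' UMIs in the other nuclei of L0 replicate 1 against 56.9% in epithelial nuclei, 33.1% against 48.3% in L0 replicate 2 and 10.7% against 27.8% in L20 replicate 1. It held nearly the same share in both at PI2 replicate 1 (69.9% against 72.0%) and PI7 replicate 1 (36.0% against 35.6%). At L0, CSN2 held 30.6% against 16.6% and 29.1% against 24.2%, and CSN3 25.9% against 20.9% and 29.3% against 21.4%, in replicates 1 and 2. LALBA also had larger shares outside the epithelium, with 13.2% against 5.57% in L0 replicate 1, 25.5% against 14.9% in L20 replicate 1 and 26.1% against 8.84% in PI2 replicate 2. What set these proportions was not tested.

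The contrast at L0 was also seen with each nucleus of at least 1000 UMIs thinned to 1000. In L0 replicate 1 these were 7839 of 8356 epithelial and 349 of 487 other nuclei, whereas shares before thinning are over all nuclei. In L0 replicate 1, CSN1S1 was then found in 90.01% of epithelial and 52.9% of other nuclei, against 95.8% and 67.4% before thinning. CSN3 was seen in 80.1% and 40.1% after thinning, CSN2 in 57.8% and 45.02%, and LALBA in 28.8% and 22.95%. In L0 replicate 2, 111 of 202 other nuclei had that depth. Their shares after thinning were lower, at 26.4% for CSN1S1, 26.5% for CSN3, 29.4% for CSN2 and 9.51% for LALBA.

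**Figure D3:**
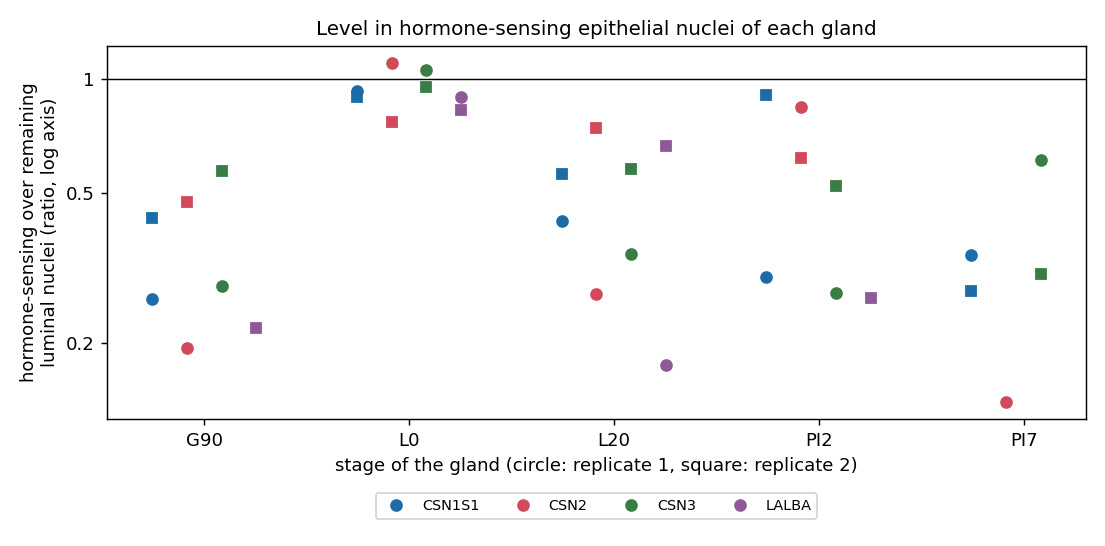
CPM in hormone-sensing nuclei over CPM in the remaining luminal nuclei of the same gland on a log axis, by stage and gene, for members with more than 3 UMIs in the remaining nuclei and at least 1 in the hormone-sensing ones. The line at 1 marks equal levels, and all 10 values of CSN1S1 lie under it, from 0.262 to 0.932.

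Among epithelial nuclei, the 4 genes were lower in hormone-sensing nuclei than in the remaining luminal ones of most glands. Hormone-sensing cells carry the receptors for oestrogen and progesterone and were taken as epithelial nuclei with at least 2 of ESR1, PGR, FOXA1 and TBX3, which gave 62 to 518 nuclei a gland. CSN1S1 was lower in them in 10 of 10 glands, with a median ratio of 0.424, as in G90 replicate 1 at 399 against 1524 CPM, and nearest to equal in L0 replicate 1 at 6419 against 6887 CPM. CSN3 was lower in 9 of 10 glands, CSN2 in 8 of 10, and the ratio of CSN3 had a median of 0.546 over the 10 glands. LALBA was lower in 6 of 10 and had no UMI in either group in 2 more. In the other two, G90 replicate 1 and PI7 replicate 1, hormone-sensing nuclei had 0 UMIs and the limit that a count of 0 allows, 1.53 and 0.918 CPM, was above the 1.35 and 0.488 CPM of the remaining nuclei, so a difference was not detectable there. Hormone-sensing nuclei were the deeper ones, with medians of 3718.5 to 6495 UMIs a gland against 1704 to 3323.5, and the part of depth in these ratios was not tested. In progenitor-like nuclei, with at least 2 of KIT, ALDH1A3 and CD14, the ratios were nearer to 1, with medians of 0.815 for CSN1S1 (lower in 10 of 10 glands) and 0.937 for CSN3 (9 of 10), and CSN2 was lower in 7 of 10.

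The genes whose level over the 10 glands was most like that of a member were compared as log2(CPM + 1), among 9763 genes with a symbol and a mean of at least 10 CPM. Likeness was Pearson's r over the 10 glands, whose points share the make-up of each gland, and is given as a description. CSN1S1 was most like STIMATE (0.969), C4orf19 (0.958), CLINT1 (0.957), MCOLN2 (0.954) and RHOU (0.954). CSN2 was most like XDH (0.993), which encodes a main protein of the milk fat globule membrane, then IPPK (0.983), CHD6 (0.966), SECISBP2L (0.944) and NMNAT1 (0.942). CSN3 was most like MTUS1 (0.958), GPR160 (0.957), CLK4 (0.946), BAZ2B (0.939) and PCK2 (0.936), and LALBA most like CFAP161 (0.972), SLC6A14 (0.966), ATP7B (0.953), BTG3 (0.953) and SLC3A1 (0.947). Among the members themselves r was highest between CSN2 and LALBA (0.903) and lowest between CSN1S1 and LALBA (0.670), although CSN1S1 and CSN2 are neighbours in the genome (0.822).

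Related genes of milk synthesis gave no call between adjacent stages under edgeR. From the list of other milk proteins the files held PAEP, LTF, LPO and CEL, and from L0 to L20 in epithelial nuclei their median log2 fold change was -1.61, against -3.85 for the 4 members and 0.04 for all genes tested. PAEP, which encodes beta-lactoglobulin, stood at 5538 and 5276 CPM (G90), 4749.5 and 5843 (L0), 502 and 166 (L20), 2320.1 and 1597 (PI2), and 282 and 317 (PI7). Its sows lay close to each other at G90, where those of CSN2 were 21.7-fold apart, and its log2 fold change from L0 to L20 was -4.26 (SE 0.67, adjusted p = 0.133). The 8 genes of prolactin, STAT5 and ELF5 control had a median of -0.64 and the 4 of lactose synthesis and casein phosphorylation one of -0.01. From G90 to L0 the medians were 1.62 for the members, 1.92 for other milk proteins, 0.50 for control and -0.30 for lactose synthesis, against -0.08 for all genes. No gene of these lists passed edgeR's test in either direction.

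Between classes these lists did hold called genes, among the 11.8% of all genes called higher in epithelial nuclei. PAEP (log2 difference 2.16) and LTF (2.91), the iron-binding lactoferrin, were 2 of 4 other milk proteins. B4GALT1 (1.60), the partner of alpha-lactalbumin, UGP2 (1.39), which makes UDP-glucose, and FAM20C (1.19), the kinase that phosphorylates caseins, were 3 of 4 in the lactose and phosphorylation list. STAT5A (2.29), STAT5B (2.28) and NFIB (2.03) were 3 of the 6 genes of the control list that did not serve as gate markers, which PRLR and ELF5 did. The medians were 3.05 for the members, 1.58, 1.29 and 1.03 for the other milk proteins, the lactose list and those 6 control genes, and 0.10 for all genes.

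**Figure D4:**
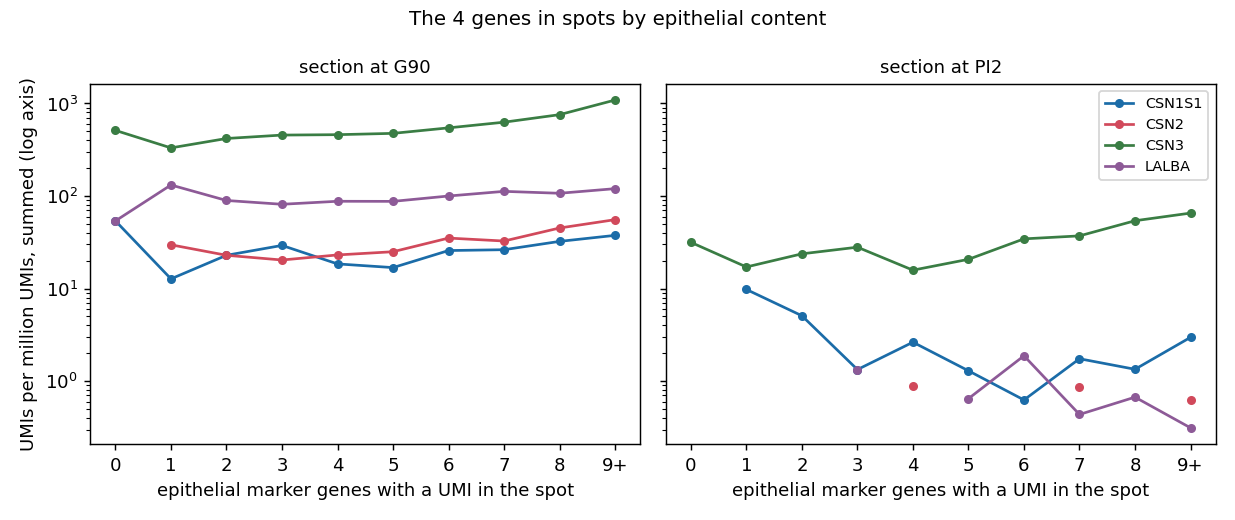
CPM of each gene on a log axis against the number of epithelial marker genes with a UMI in a spot, from 0 to 9 or more, in the sections of G90 and PI2. CSN3 in G90 runs from 331 CPM in spots with 1 marker to 1089 in spots with 9 or more, and at PI2 every gene lies below its level at G90 where both have UMIs. Spots with more markers were also deeper, with medians from 1131 (0 markers) to 13663 UMIs (9 or more) at G90 and from 945 to 17349 at PI2.

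In the tissue sections, which hold total RNA, CSN3 was the member with most UMIs. The G90 section, with 4721 spots and 42815421 UMIs, held 33.1 CPM of CSN1S1, 47.0 of CSN2, 890.1 of CSN3 and 113 of LALBA, and these were seen in 23.05%, 28.7%, 86.5% and 49.3% of spots. The PI2 section, with 2248 spots and 17906403 UMIs, held 2.29, 0.391, 45.7 and 0.558 CPM, from 41, 7, 818 and 10 UMIs. CSN3 thus made up 82.2% of the 4 genes' UMIs at G90 and 93.4% at PI2, whereas in epithelial nuclei of the glands at these stages it held 10.5% to 29.3%. Per kilobase of mRNA, a scale not tested for UMIs, the G90 section held 1048 CPM of CSN3 against 29.6 of CSN1S1. Each section listed 21280 genes, with genes of no UMI among them, whereas a gland listed 23811 to 27699 genes, each with at least 1 UMI. Molecule, chemistry, counting software and the list of genes thus differ between sections and nuclei and cannot be told apart. Whether a section shares its sow with a library of nuclei is not given in the sources read here.

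All 4 genes were lower in the PI2 section than in the G90 section. In spots with at least 2 epithelial markers (1909 at PI2 and 4514 (G90)) the ratio of CPM was 0.0646 for CSN1S1 (95% interval 0.0453 to 0.0894), 0.00859 for CSN2 (0.00345 to 0.0177), 0.0521 for CSN3 (0.0485 to 0.0558) and 0.00514 for LALBA (0.00246 to 0.00945). With 1 section per stage there is no test, and the intervals cover counting error only, not the spread between spots or sows. CSN3 was seen in 46.3% of spots at G90 and 3.68% at PI2 with spots thinned to 1000 UMIs, against 86.5% and 22.1% before.

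The section of PI2 held far fewer CSN3 UMIs per spot than that of G90. The top 10% of spots held 41.9% of its UMIs at G90 and 66.7% at PI2, and the highest count in a spot was 143 UMIs. Such a share also rises by itself where UMIs per spot are few, and the part of that here was not tested. In the G90 section CSN3 stood at 512 CPM (38 UMIs) in the 61 spots with no epithelial marker. Those spots were shallow, with a median of 1131 UMIs against 8062 over all spots, and the part of depth was not tested. LALBA stood at 113 CPM (35 UMIs) in G90 spots with fewer than 2 epithelial markers and at 113 CPM in those with at least 2. CSN1S1 and CSN2 stood at 22.6 CPM each (7 UMIs each) in the former and at 33.2 and 47.1 in the latter. In the 64 spots with adipose markers alone, whose median was 1341 UMIs, CSN3 stood at 345 CPM (33 UMIs) and LALBA at 136 CPM (13 UMIs). At PI2 the 23 spots of that kind held no UMI of any of the 4 genes, where the limit that a count of 0 allows is 45.7 CPM, about the level of CSN3 over the whole section, so a difference was not detectable at this depth.

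Milk cells held by far the highest levels. In epithelial cells of colostrum (2947 cells, median 17641 UMIs) CSN1S1 stood at 28917 CPM, CSN2 at 125925, CSN3 at 40261 and LALBA at 29452, and in those of mature milk (924 cells, median 3282.5 UMIs) at 47213, 149225, 37227 and 39379. The 4 genes made up 22.5% of the UMIs of epithelial cells in colostrum and 27.3% in mature milk. With the stricter gate that allowed no marker of another class, CSN1S1, CSN2, CSN3 and LALBA stood at 21429, 96743, 28101 and 19065 CPM in colostrum (102 cells) and at 26567, 73648, 22943 and 15159 CPM in mature milk (195 cells), so that the order of the sums turned. At L20 the gland and milk thus lay far apart, since the same genes held at most 0.0969% of the UMIs of epithelial nuclei in the glands of that stage. Nuclear against total RNA and frozen tissue against milk cannot be told apart here, and whether the milk came from the sows of these glands is not given in the sources read here.

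CSN2 had the most UMIs of the 4 genes in milk. It held 56.1% of the 4 genes' UMIs in colostrum and 54.7% in mature milk, where CSN1S1 held 12.9% and 17.3%, CSN3 17.9% and 13.6%, and LALBA 13.1% and 14.4%. Per kilobase of mRNA, a scale not tested for UMIs, colostrum held 114900 CPM of CSN2, 47421 of CSN3, 42996 of LALBA and 25842 of CSN1S1. Per kilobase of gene body it held 14980 CPM of CSN2, 12777 of LALBA, 4033 of CSN3 and 1440.4 of CSN1S1, so that CSN2 was highest and CSN1S1 lowest on both scales.

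Between the milk samples the direction of CSN2 and LALBA turned with the gate. The ratio of mature milk to colostrum in epithelial cells was 1.63 for CSN1S1 (95% interval 1.63 to 1.64), 1.19 for CSN2 (1.18 to 1.19), 0.925 for CSN3 and 1.34 for LALBA. In cells with no marker of another class (195 of mature milk and 102 of colostrum) it was 1.24, 0.761, 0.816 and 0.795. In sums over cells CSN1S1 alone was higher and CSN3 alone lower in mature milk under both gates. The top 10% of epithelial cells held 71.4% of the CSN1S1 UMIs in mature milk and 26.4% in colostrum, and the median cell went the other way, with 17.5 CSN1S1 UMIs per 1000 in mature milk against 28.2 in colostrum. The median cell was lower in mature milk for CSN2 (29.4 against 120.5 per 1000), CSN3 (14.97 against 38.8) and LALBA (1.63 against 23.9) as well. Each stage is 1 sample, and the intervals cover counting error only, not the spread between cells or sows.

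**Figure D5:**
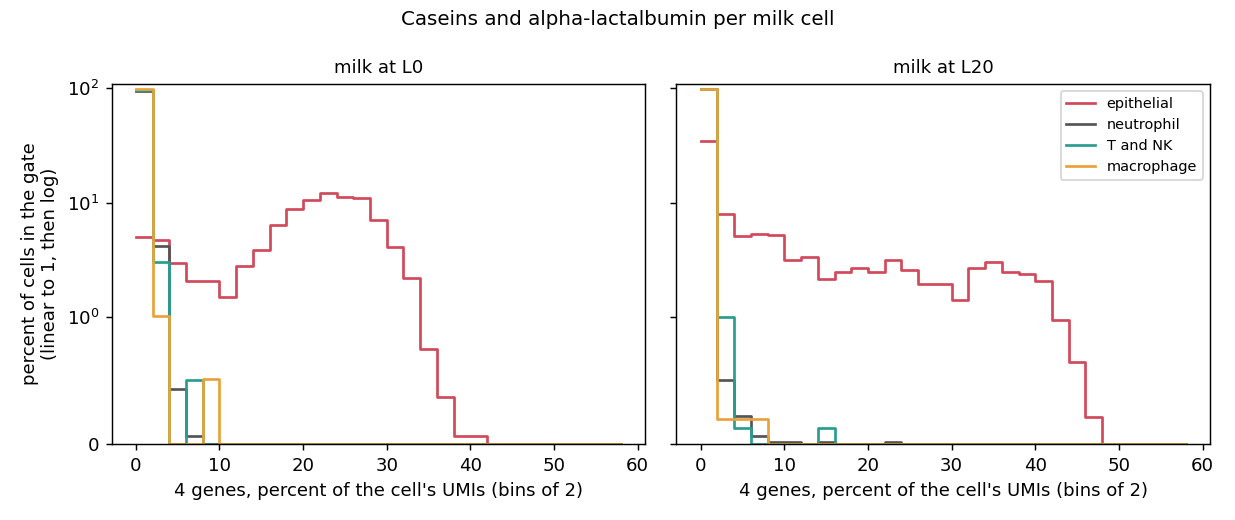
Percent of the milk cells of a gated class by the percent of a cell's UMIs that came from the 4 genes, in bins of 2 percentage points. Epithelial cells, neutrophils, T and NK cells and macrophages of colostrum (L0) and mature milk (L20) are drawn, on an axis that is linear to 1 and logarithmic above. Epithelial cells have medians of 21.8% in colostrum and 6.94% in mature milk, and neutrophils of 0.846% and 0.0988%.

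Epithelial cells of mature milk were divided in their content of these transcripts. The 4 genes made up a median of 21.8% of a colostrum epithelial cell's UMIs, with 4.18% at the lower decile and 29.3% at the upper. In mature milk the median was 6.94%, with quartiles at 0.819% and 22.4%, and 248 of 924 cells (26.8%) held under 1%, against 38 of 2947 (1.29%) in colostrum. Spearman's rho between pairs of the 4 genes ran from 0.820 to 0.942 in mature milk (682 cells of at least 2000 UMIs) and from 0.401 to 0.611 in colostrum (2826 cells), as a description over cells of the same library.

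Immune cells of milk carried the same transcripts, at lower levels in mature milk than in colostrum. In colostrum, neutrophils (8059 cells) held 1676 CPM of CSN1S1, 5286 of CSN2, 1245 of CSN3 and 1143 of LALBA, T and NK cells 1607, 5008, 1009 and 923, and macrophages 1446, 4424, 929 and 850.1. The 3 classes thus lay near each other for each gene. In mature milk the 4918 neutrophils held 339, 1026, 275 and 308 CPM, the T and NK cells 256, 803, 205 and 222, and the macrophages, which were the deepest of these cells, 127, 381, 96.1 and 129.8, so that the classes lay further apart there. All non-epithelial classes together stood at 2.97% to 5.68% of the epithelial level in colostrum and at 0.471% to 0.551% in mature milk, depending on the gene. CSN2 held nearly its epithelial share of the 4 genes in them, with 56.7% against 56.1% in colostrum and 52.6% against 54.7% in mature milk, while CSN1S1 held 18.1% against 12.9% in colostrum.

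A CSN2 UMI was common in all classes of colostrum at a shared depth. Thinned to 500 UMIs, 99.6% of epithelial cells and 90.1% of the other classes held a CSN2 UMI in colostrum. In mature milk the shares were 77.0% and 26.4%, with 28.2% for neutrophils and 13.1% for macrophages.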

How the data were processed

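Nuclei of 10 frozen glands, spots of 2 sections and cells of 2 milk samples were used. The authors deposited whole UMI counts per gene and barcode without normalization, made against Sscrofa11.1 with CeleScope (v1.1.7) for nuclei and milk cells and with Space Ranger for sections, whose version is given as 1.2.0 in the submitters' processing notes and differs between the other sources. The annotation release behind the counts, and whether intronic reads and strand were used, are not given in the sources used here. Seurat 4.3.0 is named there too.

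Nuclei and milk cells were kept with at least 300 genes and at most 25% UMIs of the 13 mitochondrial genes, the limits of the study. A barcode was put in a class if at least 2 of its markers had a UMI and every other class had at least 2 fewer. A strict gate allowed no marker of another class. No doublet caller was run. The main gate kept barcodes with some markers of other classes, so that the strict gate kept 102 of 2947 colostrum and 195 of 924 mature milk epithelial cells. UMIs were summed per gland, since nuclei are not replicates, and tested over all genes with edgeR 4.0.16 (quasi-likelihood, TMM, its filter on low counts) in R 4.3.3, with DESeq2 1.42.0 as an alternative. The labels do not say more of the replicates of a stage than that they are separate samples, and the study describes them as different sows. Intervals are at 95% and cover counting error only. Shares were thinned exactly to 1000 UMIs for nuclei and spots and 500 for milk cells, and barcodes below that depth were left out of thinned shares. Named genes are the 4 members, 3 lists of milk synthesis genes, and for each member the 5 genes of highest correlation over glands. The members and lists were chosen with earlier results of these data known. Promoters were read from the RefSeq annotation of Sscrofa11.1.

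On simulated counts with 100 genes changed by a log2 of 2 and 100 by 4, the comparison of G90 with L0 recovered 9% and 88% in whole glands (22073 genes) and 18% and 91% in epithelial nuclei (18990 genes). The changed genes were drawn at random above a minimum level, each with its own estimated spread. These shares are therefore not rates of recovery for the 4 members, some of which differed widely between sows of a stage.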

Additional observations from a re-analysis of the deposited data

How the results depend on the processing

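In the gland comparisons, 759 values of members under the alternatives kept their direction and their side of the threshold, 37 passed it where the reported value did not, 9 no longer passed it and 18 turned direction. The section and milk values have no test. Among them, 24 shares with a UMI were higher without thinning by more than their counting error, and such a share rises by itself with depth. Of the ratios, 6 of milk moved by more than their counting error, 2 of milk turned and 4 of sections did neither. Apart from the shares, the cause was not tested for any of these. Counts of called genes moved most. In whole glands DESeq2 called 392, 1157, 17 and 13 genes in the 4 comparisons of adjacent stages and 1544 over the 5 stages, where edgeR called 0. Without a filter on low counts edgeR called 33, 269 and 3 genes in the first 3 of these comparisons and 614 over the 5 stages, and with the 4 glands of G90 and L0 alone it called 407. In epithelial nuclei DESeq2 called 901, 902, 8 and 28 genes and 2192 over the 5 stages, and no filter gave 350 between G90 and L0, 405 between L0 and L20, 1 between PI2 and PI7 and 1358 over the 5 stages. From G90 to L0 the count of 4 became 0 with total UMIs, 978 with the glands of these stages alone, 8 with a minimum of 500 genes and a maximum of 5% mitochondrial UMIs and 12 with the strict gate, and from L0 to L20 the glands of these stages alone gave 17. Over the 5 stages the count of 22 became 59 with total UMIs and 81 with the strict gate. The class by stage count of 478 became 275, 2010 and 188 with total UMIs, no filter and the strict gate.

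With each gland left out in turn, counts in whole glands ran from 0 to 15 from L0 to L20 and from 0 to 136 over the 5 stages. In epithelial nuclei they ran from 0 to 141 from G90 to L0, from 0 to 65 from L0 to L20 and from 0 to 735 over the 5 stages, with 735 without PI2 replicate 1, 403 without PI2 replicate 2, 7 without PI7 replicate 1, and 0 without L0 replicate 1, L0 replicate 2 or PI7 replicate 2. The count between classes, 5470 in either direction, ran from 5357 to 5563 and the class by stage count from 159 to 2283. All other counts stayed at 0. Some log2 fold changes of members turned. In whole glands CSN2 ran from -0.19 (without G90 replicate 1) to 5.08 between G90 and L0. Between L20 and PI2, CSN1S1 ran from -0.12 (without L20 replicate 2) to 2.13, CSN2 from -5.54 (without PI2 replicate 2) to 6.15, CSN3 from -0.72 (without PI2 replicate 2, and -0.61 without L20 replicate 2) to 3.21, and LALBA from -14.3 to 5.82 (without L20 replicate 1, and 0.53 without PI2 replicate 1). Between PI2 and PI7, LALBA ran from -13.6 to 6.17 (without PI2 replicate 2). In epithelial nuclei CSN2 ran from -0.17 (without G90 replicate 1) to 4.70 between G90 and L0. Between L20 and PI2, CSN1S1 ran from -0.73 to 0.35 (without PI2 replicate 2, and 0.0022 without L20 replicate 1), CSN2 from -5.40 (without PI2 replicate 2) to 3.71, CSN3 from -0.96 to 0.77 (without L20 replicate 1, and 0.39 without PI2 replicate 1), and LALBA from -13.6 to 4.03 (without L20 replicate 1, and 0.38 without PI2 replicate 1). Between PI2 and PI7, LALBA ran from -12.9 to 4.30 (without PI2 replicate 2). None of these directions was called in the reported fit.

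The replicate numbers were not taken as pairs, since the study describes different sows. Over 10 pairs of stages, the deviations of same-numbered glands correlated between -0.522 and 0.388 in whole glands and between -0.419 and 0.291 in epithelial nuclei. Whether same-numbered glands of some stages shared a batch was not tested. With the replicate number as a block, the counts in epithelial nuclei became 1 from G90 to L0 and 7 over the 5 stages, where CSN1S1 had an adjusted p of 0.104, and CSN3 turned to -0.056 between L20 and PI2 in whole glands.

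The ratios of mature milk to colostrum, which have no replicates, became 1.64, 1.19, 0.931 and 1.35 for CSN1S1, CSN2, CSN3 and LALBA with a minimum of 500 genes and a maximum of 10% mitochondrial UMIs, and 1.24, 0.761, 0.816 and 0.795 with the strict gate, which turned CSN2 and LALBA. Values of CSN2 and LALBA at PI7 and of LALBA in PI2 replicate 1 rest on 0 to 58 UMIs. Whole-gland values of LALBA in G90 replicate 1 (30 UMIs) and L20 replicate 2 (54) and of CSN2 in PI2 replicate 1 (55) rest on few as well. In epithelial nuclei of PI2 replicate 1, CSN2 had 49 UMIs, with 11 in 1 nucleus.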
